A study of Mus musculus with 6 samples.

Results

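Resident tissue macrophage genes were followed in the gonadal white adipose tissue (GWAT) of obese mice with and without the lipid droplet protein Fsp27. The 10 genes were Timd4, Lyve1, Folr2, Cd163, Mrc1, Stab1, F13a1, Cd209d, Cd209f and Cd209g, out of 19937 genes on the array, and each was represented by its 1 probeset with a single gene symbol. They were listed for their known expression in macrophages that live in healthy tissue, and the question was whether they are spared where macrophage genes in general are lower. The list was chosen with earlier results of these data known, so it is not independent of them. The ob/ob/Fsp27-/- group lacked both leptin and Fsp27, and the ob/ob group lacked leptin only, so leptin deficiency was common to both. All mice were males aged 4 months, kept on chow. RNA of whole GWAT was hybridized to 3 GeneChip Mouse Gene 1.0 ST arrays per genotype, and by the methods each array held equal amounts of RNA from several mice, pooled, which the labels do not mention. The spread between arrays is therefore a spread between pools, and that between single animals is not known. Each value is a log2 signal made by Robust Multi-array Average (RMA), and arrays are numbered 1 to 3 within each genotype in the order of their labels.

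Macrophages of adipose tissue include cells that settle there early and renew themselves locally, and cells that arrive from the blood as monocytes in obesity. Resident macrophages often lie along vessels and carry receptors that take up dying cells, glycoproteins, hyaluronan and haemoglobin. Macrophages that gather around dying adipocytes instead carry genes of lipid uptake and lysosomes, such as Trem2, Gpnmb and Itgax, the gene of Cd11c.

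Among the resident macrophage genes, 3 of 10 fell in ob/ob/Fsp27-/- GWAT (Folr2, Mrc1 and Stab1), 2 rose (Cd209d and Cd209f) and 5 did not pass the test. A gene passed where limma gave an adjusted p below 0.05 with a log2 fold change of 0.5 or more in either direction. Over all genes 10.8% were lower and 9.58% higher, 20.4% in either direction, and counts of 3 and 2 out of 10 are too small to be set apart from that background. Each ob/ob/Fsp27-/- array lay below each ob/ob array for 3 genes (20.7% of all genes) and above for 3 genes (25.3% of all genes), and 4 genes overlapped. The median log2 fold change, ob/ob/Fsp27-/- minus ob/ob, was −0.15 over the 10 genes and 0.06 over all genes. The genes thus did not move together, and the values of each follow by role. GWAT is a mixture of cells, and in such bulk RNA fewer macrophages and less RNA per macrophage cannot be told apart.

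**Figure D1:**
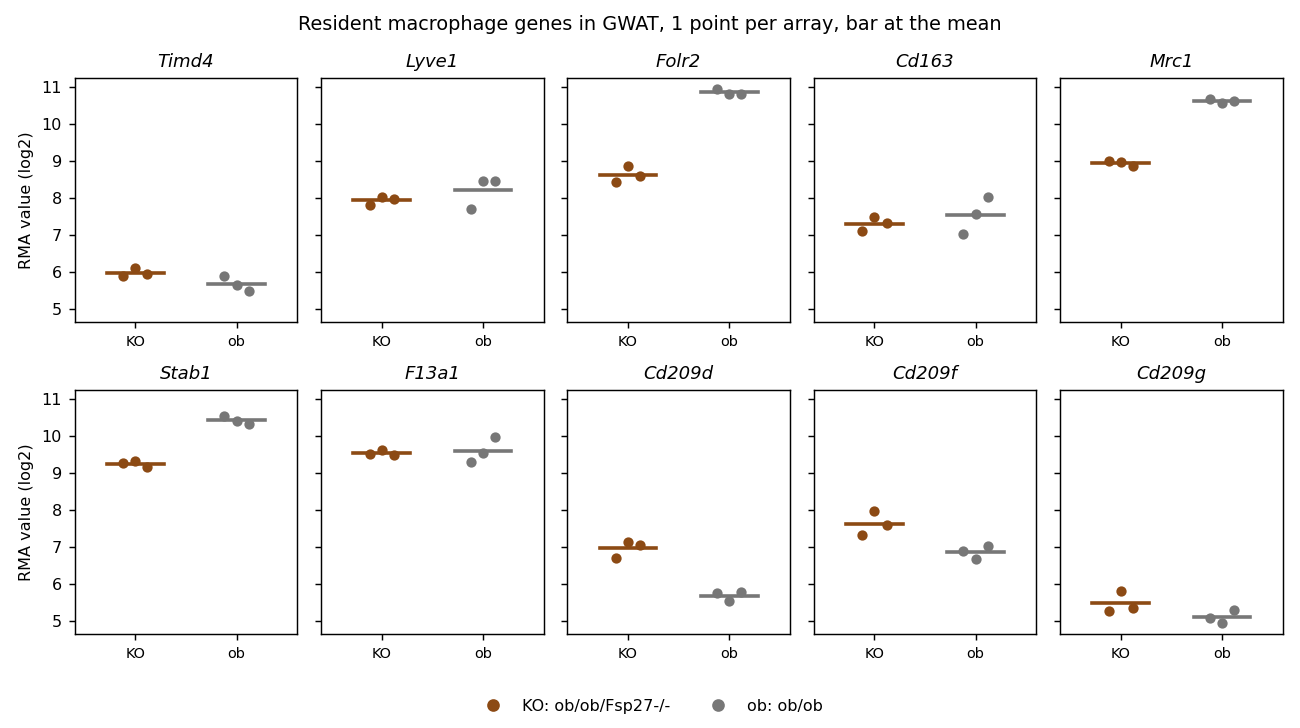
RMA log2 value (y axis) of each resident macrophage gene on the 3 ob/ob/Fsp27-/- arrays (left) and the 3 ob/ob arrays (right), with 1 point per array and a bar at the group mean. Folr2, Mrc1 and Stab1 lie apart with ob/ob/Fsp27-/- below, Cd209d, Cd209f and, barely, Timd4 lie apart with ob/ob/Fsp27-/- above, and the other 4 genes overlap.

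The genes that fell encode endocytic receptors. Folr2, which encodes folate receptor beta, had 8.42, 8.86 and 8.59 on the ob/ob/Fsp27-/- arrays and 10.93, 10.81 and 10.81 on the ob/ob arrays. Each ob/ob/Fsp27-/- value was below each ob/ob value, and the gap was far wider than the spread within either genotype. The log2 fold change was −2.23 (SE 0.12, adjusted p = 5.32e-05, limma), or 4.68-fold lower in ob/ob/Fsp27-/- GWAT.

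Mrc1 encodes the mannose receptor CD206, which clears glycoproteins and collagen fragments. Its values were 9.004, 8.960 and 8.863 in ob/ob/Fsp27-/- and 10.672, 10.570 and 10.618 in ob/ob GWAT. The arrays of a genotype lay close together, and the genotypes were 3.20-fold apart (log2 fold change −1.68, SE 0.08, adjusted p = 3.28e-05, limma). Stab1 encodes stabilin-1, a scavenger receptor of sinusoidal endothelium and macrophages. It had 9.26, 9.31 and 9.16 in ob/ob/Fsp27-/- and 10.54, 10.40 and 10.31 in ob/ob GWAT, again without overlap. It was 2.26-fold lower in ob/ob/Fsp27-/- GWAT (log2 fold change −1.17, SE 0.09, adjusted p = 0.000189, limma). The order of these 3 decreases, with Folr2 ahead of Mrc1 and Mrc1 ahead of Stab1, was not tested, although the 95% intervals of their log2 fold changes (−2.51 to −1.94, −1.86 to −1.49 and −1.39 to −0.96) did not overlap.

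To show the DNA in front of the called genes, promoter sequences of RefSeq (mouse build GRCm38.p6) were read for 9 of the 10 genes, as 11 windows of 250 bases upstream of an annotated start. Some of these starts lie inside the annotated gene, and so do their windows, wholly or in part. The windows of Folr2 (chr7:101857191-101857440, minus strand), Mrc1 (chr2:14229164-14229413, plus strand) and Stab1 (chr14:31168652-31168891, minus strand, cut to the 240 bases outside the gene) are printed 5′ to 3′. Capitals mark AGGAAG or its reverse complement, the core that PU.1 (Spi1), a factor that macrophages need, shares with other ETS factors.
Folr2: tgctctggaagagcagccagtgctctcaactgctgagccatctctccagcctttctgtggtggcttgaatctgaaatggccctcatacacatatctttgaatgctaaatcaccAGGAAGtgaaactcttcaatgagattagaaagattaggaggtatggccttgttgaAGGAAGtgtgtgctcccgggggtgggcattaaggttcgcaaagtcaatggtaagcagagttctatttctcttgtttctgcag
Mrc1: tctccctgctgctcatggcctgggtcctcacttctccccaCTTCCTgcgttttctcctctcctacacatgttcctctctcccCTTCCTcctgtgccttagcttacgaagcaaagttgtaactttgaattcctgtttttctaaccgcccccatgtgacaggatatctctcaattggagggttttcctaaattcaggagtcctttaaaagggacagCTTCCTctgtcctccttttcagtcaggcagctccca
Stab1: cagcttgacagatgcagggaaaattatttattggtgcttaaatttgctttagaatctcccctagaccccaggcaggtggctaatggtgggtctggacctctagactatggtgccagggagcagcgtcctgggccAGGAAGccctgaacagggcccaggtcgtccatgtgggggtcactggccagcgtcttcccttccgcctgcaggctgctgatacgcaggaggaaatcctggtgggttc
The AGGAAG core was present 2 times in this Folr2 window, 3 times in that of Mrc1 and 1 time in that of Stab1. On either strand it was found in 7 of the 11 windows, which belong to 5 genes (Cd209d, F13a1, Folr2, Mrc1 and Stab1), and in 29.5% of 32851 mouse windows of the same length. These 5 genes include the 3 that fell, 1 that rose and 1 that did not pass the test. Of 3 further motifs, searched on both strands and counted also where matches overlap, TGCTGAC (bound by MAF factors) was found in 1 window, that of Timd4 (3.81% of all windows), the palindromic STAT6 motif in 0 (5.85%) and TATAAA in 2, those of Cd209f and Cd209g (12.4%). Such matches describe the letters of the windows and do not show binding.

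Other scavenger receptors of the list, Cd163 and Lyve1, did not pass the test. Cd163, the receptor for haemoglobin bound to haptoglobin, had 7.11, 7.48 and 7.31 in ob/ob/Fsp27-/- and 7.01, 7.57 and 8.02 in ob/ob GWAT. The lowest and the highest value were both from ob/ob arrays. Its log2 fold change was −0.23 (SE 0.24, 95% interval −0.81 to 0.34, adjusted p = 0.521, limma), and without ob/ob array 3 it was 0.0083 (adjusted p = 0.980). Without ob/ob array 1 it was −0.49 and did not pass either (adjusted p = 0.092, limma). Lyve1, a hyaluronan receptor of lymphatic endothelium that perivascular macrophages also carry, had 7.81, 8.03 and 7.96 in ob/ob/Fsp27-/- and 7.69, 8.44 and 8.45 in ob/ob GWAT. Here ob/ob array 1 lay below every ob/ob/Fsp27-/- array and the other ob/ob arrays lay above them. The log2 fold change of Lyve1 was −0.26 (SE 0.21, 95% interval −0.75 to 0.22, adjusted p = 0.395, limma). Without ob/ob array 1 it was −0.51 and passed the test (adjusted p = 0.0142), so the absence of a call for Lyve1 rests on that array. Leaving out ob/ob array 2 or array 3 gave −0.14 for Lyve1 in either case (adjusted p = 0.735 and 0.695, limma).

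F13a1 encodes the A subunit of coagulation factor XIII, a transglutaminase that cross-links fibrin and is made by macrophages and megakaryocytes. Its values were 9.50, 9.62 and 9.48 in ob/ob/Fsp27-/- and 9.28, 9.54 and 9.96 in ob/ob GWAT, so the ob/ob/Fsp27-/- arrays lay inside the range of the ob/ob arrays. The log2 fold change was −0.06 (SE 0.17, 95% interval −0.45 to 0.33, adjusted p = 0.823, limma). A decrease of the size seen for Folr2, Mrc1 or Stab1 is outside this interval. The sign of the small F13a1 difference turned under centring on housekeeping genes (0.13, adjusted p = 0.563) and without ob/ob array 3 (0.12, adjusted p = 0.485).

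Timd4 encodes TIM-4, a receptor for phosphatidylserine with which resident macrophages take up apoptotic cells. It had 5.88, 6.09 and 5.95 in ob/ob/Fsp27-/- and 5.88, 5.65 and 5.47 in ob/ob GWAT. The genotypes did not overlap, but the lowest ob/ob/Fsp27-/- array and the highest ob/ob array were equal to 2 decimals. The log2 fold change of 0.31 (SE 0.12, 95% interval 0.02 to 0.60) did not pass the test (adjusted p = 0.106, limma). Timd4 signal was low in both genotypes. Among all probesets, with or without a gene symbol, its mean percentile was 48.6 in ob/ob/Fsp27-/- and 43.4 in ob/ob GWAT. Signal is weak in this range. Background was not measured here.

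The lectins of the Cd209 family, relatives of human DC-SIGN that bind mannose- and fucose-rich glycans, had a different pattern. Cd209d had 6.70, 7.13 and 7.05 in ob/ob/Fsp27-/- and 5.74, 5.54 and 5.76 in ob/ob GWAT. All ob/ob/Fsp27-/- arrays were above all ob/ob arrays by more than the spread within a genotype. It was 2.43-fold higher in ob/ob/Fsp27-/- GWAT (log2 fold change 1.28, SE 0.13, adjusted p = 0.00055, limma). Its ob/ob mean lay at the 43.7th percentile of all probesets, as low as that of Timd4, so the size of this fold rests on a weak ob/ob signal.

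Cd209f had 7.32, 7.98 and 7.58 in ob/ob/Fsp27-/- and 6.88, 6.67 and 7.01 in ob/ob GWAT, without overlap but with a wider spread in ob/ob/Fsp27-/-. It was 1.71-fold higher (log2 fold change 0.77, SE 0.17, adjusted p = 0.0149, limma). It no longer passed when ob/ob array 2 was left out (log2 fold change 0.68, adjusted p = 0.0585). Cd209g had 5.25, 5.81 and 5.35 in ob/ob/Fsp27-/- and 5.06, 4.94 and 5.30 in ob/ob GWAT, where 1 ob/ob/Fsp27-/- array lay below the highest ob/ob array. Its log2 fold change of 0.37 (SE 0.17, 95% interval −0.02 to 0.76) did not pass (adjusted p = 0.149, limma), and its signal was below the middle of all probesets in both genotypes. When arrays were centred on housekeeping genes, it passed at 0.56 (adjusted p = 0.0419), and without ob/ob/Fsp27-/- array 2 it was 0.20 (adjusted p = 0.341).

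Mouse Cd209 genes lie together on chromosome 8, and 7 of them were measured with 1-symbol probesets. Of the 7, 4 rose (Cd209d, Cd209b, Cd209c and Cd209f), 0 fell by limma, also at an unadjusted p under 0.05, and 6 had a log2 fold change above 0. Over all genes 9.58% rose. When each array was left out in turn, an alternative added after the data were seen, 2 to 4 of the 7 rose, and the 2 that rose without ob/ob array 2 were Cd209b and Cd209d. Cd209b, a lectin of marginal zone macrophages in the spleen, had 6.10, 6.49 and 6.83 in ob/ob/Fsp27-/- and 5.30, 5.12 and 5.39 in ob/ob GWAT (log2 fold change 1.20, adjusted p = 0.00276, limma). Its ob/ob mean was also low, at the 36.7th percentile. Cd209c had a log2 fold change of 0.58 (adjusted p = 0.0337). Cd209a, which dendritic cells express, and Cd209e had 0.15 and −0.17 (adjusted p = 0.343 and 0.289, limma). The genes are paralogs, and how far their probesets bind transcripts of a neighbour was not tested.

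**Figure D2:**
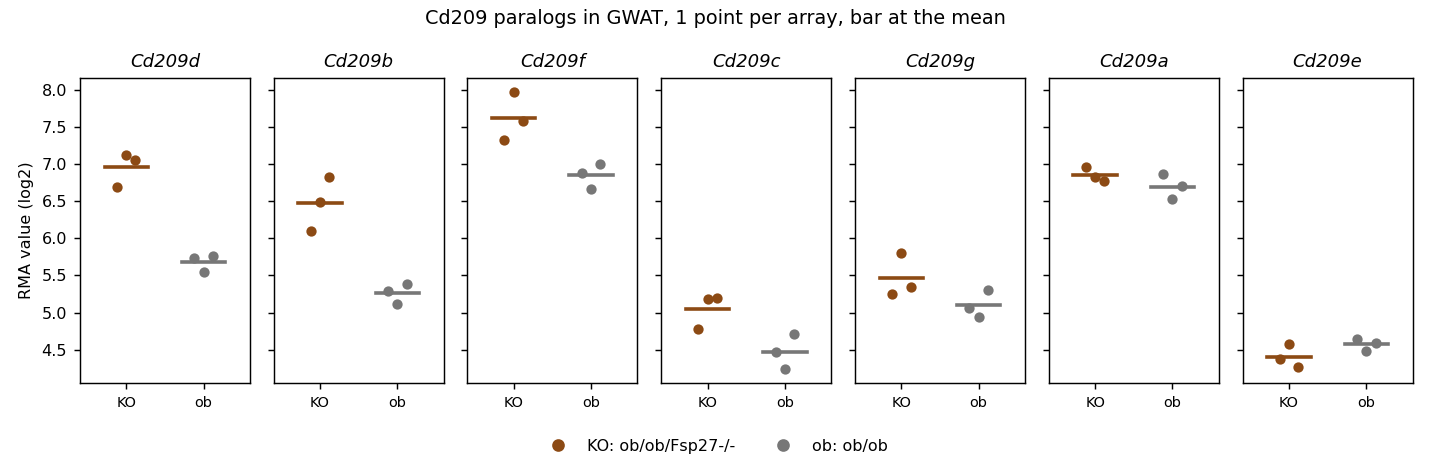
RMA log2 values (y axis) of the 7 Cd209 genes on the ob/ob/Fsp27-/- arrays (left) and the ob/ob arrays (right), with 1 point per array and a bar at the group mean. The genotypes lie apart for Cd209d, Cd209f, Cd209b and Cd209c with ob/ob/Fsp27-/- above, and heights of different genes are not comparable.

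Upstream windows were used to see how alike these paralogs are in front of an annotated start, which can lie inside the annotated gene. The Cd209g window (chr8:4134486-4134735) lay wholly inside its annotated gene (4134246 to 4137707), as did that of Cd209c, and the Cd209f window did in part. The windows of Cd209f and Cd209g were the closest pair, with 209 of 250 bases (83.6%) identical in a global alignment and an unbroken shared run of 154 bases that holds 1 TATAAA. The other 20 pairs among the 7 genes had 47.2% to 61.2%. The alignment allowed gaps, and the share that unrelated windows reach was not measured, so these lower shares cannot be read as likeness. For Cd209d (chr8:3878549-3878749, minus strand) capitals mark the AGGAAG core or its reverse complement. For Cd209f (chr8:4105839-4106014, minus strand) capitals mark the first 80 bases of the run shared with Cd209g. Both are cut to the bases outside the annotated gene.
Cd209d: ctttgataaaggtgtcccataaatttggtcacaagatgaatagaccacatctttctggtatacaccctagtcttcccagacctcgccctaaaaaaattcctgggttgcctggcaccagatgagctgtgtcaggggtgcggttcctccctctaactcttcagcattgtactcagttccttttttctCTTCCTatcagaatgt
Cd209f: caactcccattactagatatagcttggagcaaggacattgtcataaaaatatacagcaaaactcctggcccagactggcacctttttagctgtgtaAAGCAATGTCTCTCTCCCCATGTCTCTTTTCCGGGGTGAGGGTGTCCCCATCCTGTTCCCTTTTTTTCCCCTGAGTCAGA
Of this close pair, Cd209f passed the test and Cd209g did not, and whether their changes differ was not tested. Cd209d, with the larger increase, shared 54.8% of bases with Cd209f and 52.4% with Cd209g.

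The whole macrophage signal gives the scale for these changes. A list of 25 general macrophage genes, none of them among the 10, averaged 8.20 ± 0.073 in ob/ob/Fsp27-/- and 10.48 ± 0.12 in ob/ob GWAT (SD, n = 3 arrays each), a difference of −2.28 on the log2 scale. Of these, 24 fell, with log2 fold changes of −3.21 for Adgre1 (F4/80), −2.68 for Cd68 and −1.74 for Csf1r, the receptor of the growth factor that macrophages depend on. Cx3cr1 did not pass (−0.12, adjusted p = 0.537, limma). Among 20 measured genes of lipid-associated macrophages 15 fell, including Gpnmb (−4.33), Itgax (−3.61) and Trem2 (−2.14), and the list median was −1.59.

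The difference between each resident gene and the general macrophage genes was then tested directly, by subtracting the mean of the 25 genes from every probeset on each array and fitting again. Of the 10 resident genes 9 fell less than that mean or did not fall, 0 fell more and 1 could not be told apart from it. Over all genes 98.2% were above the mean and 0.466% below, so the count of 9 is near the background and says nothing particular about resident genes. Each distance is a gene's log2 fold change minus the −2.28 of that mean, so the distances order the genes as the first fit did. The median log2 fold change over all genes was 0.06. A typical gene thus lay about as far above the mean as an unchanged gene. Folr2 differed from the macrophage mean by 0.06 (95% interval −0.22 to 0.34, adjusted p = 0.658, limma), the single resident gene that was not above it. Against Adgre1, Cd68 and Csf1r alone the Folr2 difference was 0.32 (adjusted p = 0.0318), still under the fold threshold.

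Mrc1 was 0.61 above the macrophage mean on the log2 scale (95% interval 0.33 to 0.88, adjusted p = 0.000687, limma) and Stab1 1.11 (0.85 to 1.37). The general genes themselves ranged in log2 fold change between −3.30 and −0.12, with 6 of 25 called above their own mean and 9 below, and 10 of 20 lipid-associated genes were above it. The fall of Mrc1 (−1.68) was thus close in size to that of Csf1r (−1.74), and neither Mrc1 nor Stab1 lay outside the range of the general macrophage genes. That range ended at −0.12 with Cx3cr1, which did not pass, and Lyve1 (−0.26) and Cd163 (−0.23) lay inside it too. The resident genes other than Folr2, Mrc1 and Stab1 were further above the macrophage mean. The distances were 2.02 for Lyve1, 2.05 for Cd163, 2.22 for F13a1, 2.59 for Timd4, 2.65 for Cd209g, 3.06 for Cd209f and 3.56 for Cd209d. A resident gene with no change between genotypes would be 2.28 above the mean, and Lyve1, Cd163, F13a1 and Cd209g had 95% intervals that include that value (1.51 to 2.53, 1.47 to 2.62, 1.77 to 2.68 and 2.27 to 3.04).

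**Figure D3:**
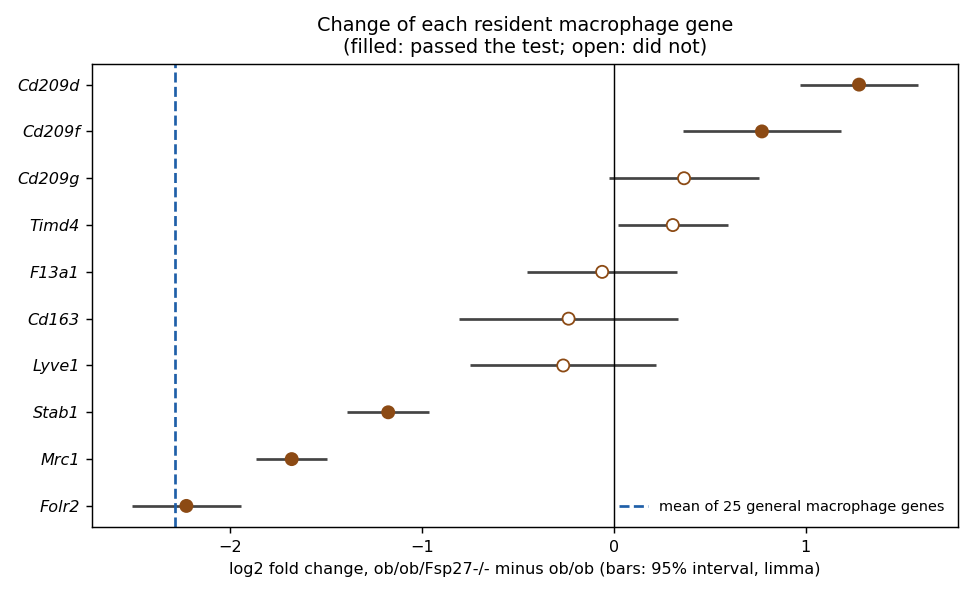
Log2 fold change of each resident macrophage gene, ob/ob/Fsp27-/- minus ob/ob (x axis), with its 95% interval from limma and a line at the mean of the 25 general macrophage genes (−2.28). Folr2 reaches that line, Mrc1 and Stab1 lie between it and 0, and Cd209d and Cd209f lie above 0.

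A further 22 resident macrophage genes were split in the same way, with 6 lower, 3 higher and 13 that did not pass (median −0.11). The lower genes included Vsig4, a complement receptor (−2.14), Pf4, a chemokine of platelets and macrophages (−1.58), Siglec1, the sialic acid receptor CD169 (−1.52), and Clec10a, a galactose-type lectin (−1.37). The higher genes were Cd209b, Cbr2, a carbonyl reductase (0.91), and Cd209c. The count of higher genes was 1 when array 2 or 3 of ob/ob/Fsp27-/- or array 2 of ob/ob was left out, and 6 when array 3 of ob/ob was. Of all 32 resident genes 9 fell and 5 rose, beside 10.8% and 9.58% of all genes. Of the 5 that rose, 4 were Cd209 genes and the other was Cbr2. The longer list thus held genes on either side, as the 10 genes did, but the higher side rested mostly on that 1 family.

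**Figure D4:**
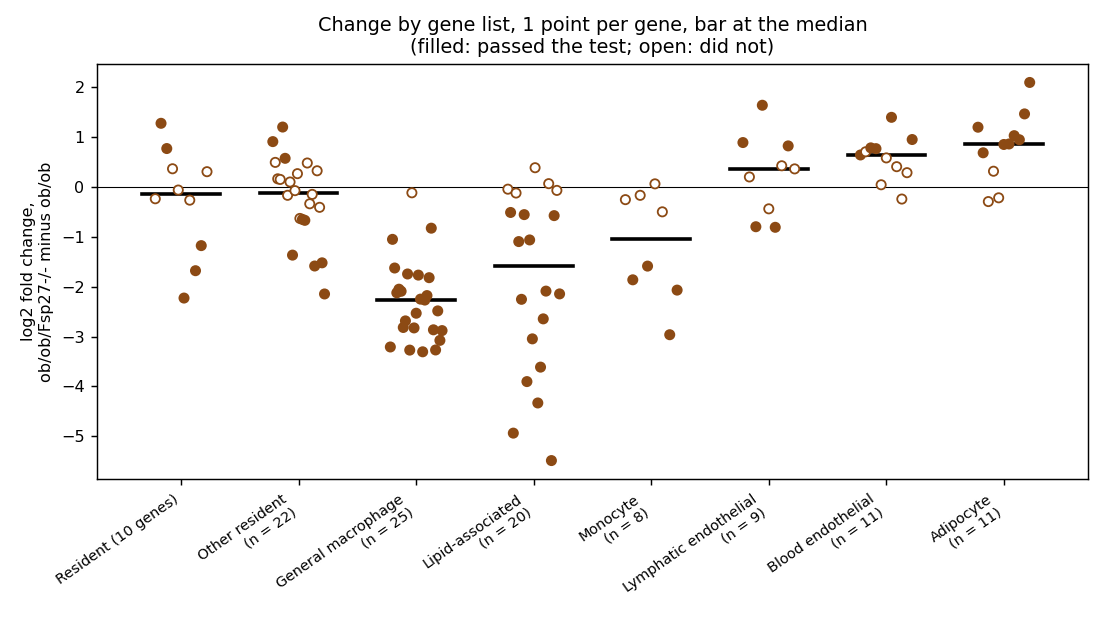
Log2 fold changes, ob/ob/Fsp27-/- minus ob/ob, of single genes (points) in each macrophage list and marker list of other cell types, with the median of each list as a bar. General and lipid-associated macrophage genes lie mostly below 0, while both lists of resident genes have medians near 0 (−0.15 and −0.11) and points on either side.

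Several resident genes are also expressed by other cells, whose markers were read beside them. Of 9 measured genes of lymphatic endothelium, a cell type that also carries Lyve1 (list median 0.36), 3 rose (Mmrn1 1.64, Flt4 0.89 and Reln 0.83) and 2 fell (Pdpn −0.81 and Itga9 −0.80). The defining factor Prox1 had 0.43, under the fold threshold (adjusted p = 0.0204, limma). The mean of the list was 6.92, 6.76 and 6.50 on the ob/ob/Fsp27-/- arrays and 6.54, 6.52 and 6.35 on the ob/ob arrays, and 1 gene fell when array 2 or 3 of ob/ob/Fsp27-/- or array 1 or 2 of ob/ob was left out.

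Of 11 genes of blood endothelium, whose cells can also express Stab1, 5 rose (Kdr 1.40, list median 0.64) and 0 fell by limma (1 lower at an unadjusted p under 0.05), with 3 higher without ob/ob/Fsp27-/- array 2. Platelet genes bear on F13a1 and Pf4, and of 4 measured 0 passed the test by limma (Itga2b −0.01, Gp9 0.07), with 1 higher at an unadjusted p under 0.05 and 1 that rose without ob/ob/Fsp27-/- array 1. Of 8 dendritic cell genes (median −0.13), 2 fell (Clec9a −0.68 and Xcr1 −0.56) and Flt3 (−0.22) and Zbtb46 (0.28) did not pass, with 1 lower when any single array but array 2 of ob/ob/Fsp27-/- was left out. The part of these cells in the values of the resident genes was not tested.

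Pathway genes of the receptors were counted from lists of their families and partners. For Mrc1, its paralog Mrc2, a collagen receptor of fibroblasts, fell (−0.91), and Pla2r1 (−0.06) and Ly75 (0.56, adjusted p = 0.074, limma) did not pass. In that family 1 gene rose when array 3 of ob/ob/Fsp27-/- or array 1 of ob/ob was left out. For Stab1 and Lyve1, 6 of 12 hyaluronan genes fell (list median −0.47) and 0 rose, also at an unadjusted p under 0.05 by limma. They were led by Cd44, a hyaluronan receptor of leukocytes (−3.40), the receptor Layn (−2.12), Vcan, a proteoglycan that binds hyaluronan (−2.07), and Hmmr (−1.55), while Stab2, the closest relative of Stab1, had −0.13 (adjusted p = 0.425, limma).

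For Timd4, 7 of 14 genes of the TIM family and of phosphatidylserine uptake fell (list median −0.47) and 0 rose, at either level of p. Havcr2, which encodes TIM-3, had a log2 fold change of −2.54, the bridging protein Pros1 −1.73, the receptor Axl −1.20 and Itgav, an integrin subunit, −1.20. The other TIM genes, Havcr1 (0.03) and Timd2 (0.05), did not pass. For Cd163, 4 of 11 genes of haemoglobin and iron handling fell (list median −0.40). They were Lrp1, which takes up haem bound to haemopexin (−1.28), Hmox1, which breaks haem down (−0.88), the ferritin gene Ftl1 (−0.88) and the biliverdin reductase Blvra (−0.78). This count was 2 when array 1 or 2 of ob/ob/Fsp27-/- or array 2 of ob/ob was left out, and 1 gene rose when array 3 of ob/ob was.

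For Folr2, folate genes went both ways. The folate transporters Slc19a1 (0.98) and Slc46a1 (0.90) rose, Ggh, a lysosomal hydrolase of folate chains, fell (−1.20), and the related receptor Folr1 had 0.27 (adjusted p = 0.463, limma), with 5 of 8 genes not passing (list median 0.25). For F13a1, 1 of 11 partners and substrates fell (list median −0.17), the plasminogen activator Plau (−2.02), and the B subunit gene F13b had −0.04. This count was 2 when array 1 or 2 of ob/ob/Fsp27-/- was left out.

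Of 19 genes of signals that act on resident macrophages, 10 fell and 1 rose (list median −0.56). The interleukin-10 receptor genes Il10ra (−2.15) and Il10rb (−1.72) fell, as did Csf1r and Tgfb1 (−1.54), and Nr1h3, the lipid-sensing receptor LXR-alpha, rose (0.83). Maf, a transcription factor of resident macrophages, had −0.34 (adjusted p = 0.0493, limma), under the fold threshold. Csf1r is also one of the general macrophage genes, as Mertk is in the list of phosphatidylserine uptake, so these lists are not separate from each other. Maf is also among the further resident genes, and Vcan is in both the hyaluronan list and the list of recruited monocytes.

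Arrays of a genotype differed in their resident gene values, described here without a test. Within ob/ob/Fsp27-/-, array 2 was highest for 9 of the 10 genes, all but Mrc1, beside 43.2% of all genes, and array 1 was lowest for 7, beside 36.0%. Within ob/ob the shares were nearer to those of all genes. Array 1 was highest for 4 genes (36.4% of all genes), array 2 for 0 (22.8%) and array 3 for 6 (40.9%), and they were lowest for 3, 4 and 3 genes (34.3%, 35.5% and 30.2%). For Lyve1, Cd163 and F13a1 array 1 was the lowest and array 3 the highest of the ob/ob arrays. Timd4, Folr2, Mrc1 and Stab1 were highest on ob/ob array 1.

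Means of marker lists moved over the same arrays. Adipocyte genes averaged 11.89, 11.94 and 11.97 in ob/ob/Fsp27-/- and 10.66, 11.21 and 11.50 on ob/ob arrays 1, 2 and 3, and 8 of 11 rose, with 3 when array 2 or 3 of ob/ob/Fsp27-/- was left out and 4 when array 2 of ob/ob was. Blood endothelial genes averaged 9.33, 9.34 and 9.28 in ob/ob/Fsp27-/- and 8.43, 8.89 and 8.89 in ob/ob GWAT, and thus were also lowest on ob/ob array 1. General macrophage genes ran in the other direction within ob/ob, with 10.61, 10.48 and 10.36, against 8.12, 8.27 and 8.21 in ob/ob/Fsp27-/-. Mesothelial genes, a sign of surface tissue, averaged 6.80, 7.11 and 6.44 in ob/ob/Fsp27-/- and 6.30, 7.10 and 6.64 in ob/ob GWAT, and 0 of 8 passed by limma, also at an unadjusted p under 0.05 (Msln −0.24), with 1 higher without ob/ob array 2. The part of these differences between pools in the resident gene values was not tested.

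**Figure D5:**
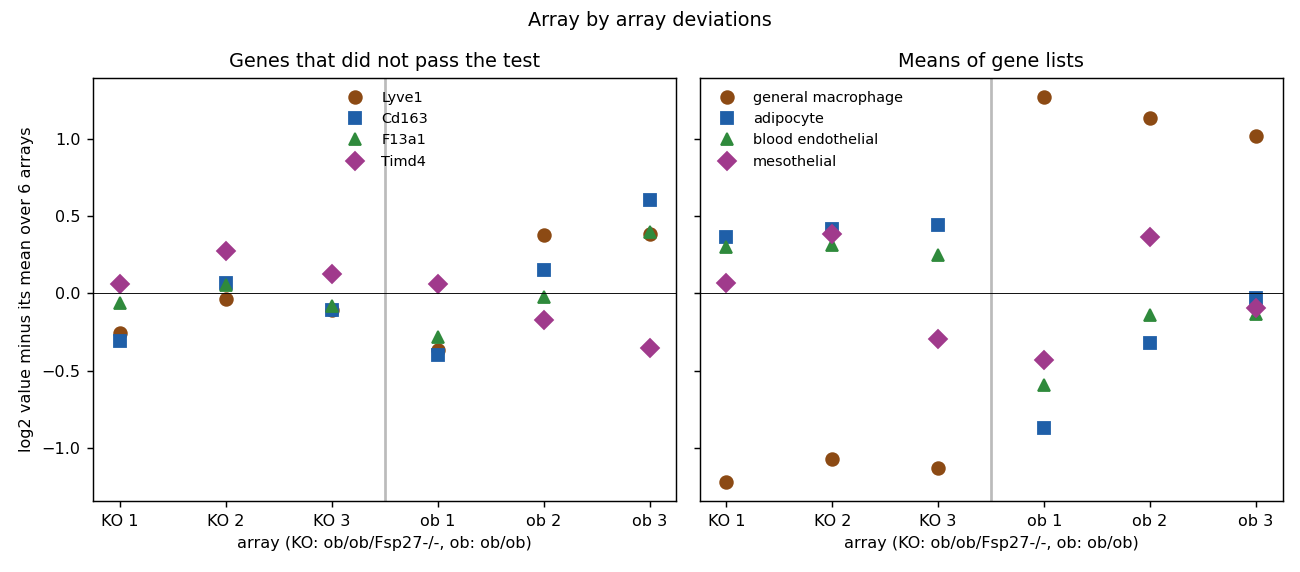
Deviation of the log2 value from its 6-array mean (y axis) on each ob/ob/Fsp27-/- array (KO 1 to 3) and each ob/ob array (ob 1 to 3), for Lyve1, Cd163, F13a1 and Timd4 (left) and for means of marker lists (right). Within ob/ob, Lyve1, Cd163 and F13a1 are lowest on array 1, as are the adipocyte and blood endothelial means, and Timd4 is highest there.

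Over the whole table, 2158 of 19937 genes were lower and 1910 higher in ob/ob/Fsp27-/- GWAT, and array medians lay between 6.02 and 6.10. When arrays were centred on 13 housekeeping genes, 1530 were lower and 3327 higher, and the median of all genes moved by 0.19 on the log2 scale. The 13 genes were themselves not constant between genotypes, with log2 fold changes from −2.14 to 1.07 (list median −0.20) and 1 called in each direction. At an unadjusted p under 0.05 by limma, 6 of them were lower and 2 higher. Cidec, the gene of Fsp27, had 11.34, 11.51 and 11.53 in ob/ob/Fsp27-/- and 11.49, 11.78 and 11.98 in ob/ob GWAT (log2 fold change −0.29, adjusted p = 0.157, limma). Where its probes lie relative to the disrupted part of the gene was not determined, so this value does not check the labels. Adipoq, the gene of the adipocyte hormone adiponectin, rose (1.20), and the 7 measured epididymis genes were below the array median on each of the 6 arrays.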

How the data were processed

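Values were taken from the deposited table of 6 arrays (3 RNA pools per genotype), in which the authors had adjusted the background, normalized by quantiles and summarized each transcript cluster on the log2 scale with RMA. Quantile normalization gives the arrays a common distribution, so a shift of most genes in 1 direction would not be seen. The submitters' processing notes name RMA and limma, with versions not given in the sources used here. Of 34760 probesets, 21640 carry 1 gene symbol, 1321 several and 11799 none. The 22961 with a symbol were fitted in R 4.3.3 with limma 3.58.1 (lmFit, eBayes, no covariate, ob/ob/Fsp27-/- minus ob/ob), with Benjamini-Hochberg adjustment over all of them. Calls needed an adjusted p below 0.05 with a log2 fold change of 0.5 or more in either direction. The 1-symbol probeset with the highest mean stood for a gene, and 21553 symbols were matched to a RefSeq gene table. In a second fit the mean of 25 general macrophage genes was subtracted on each array. The members and lists were chosen with earlier results of these data known. The text names all members, up to 4 called and 2 defining uncalled genes per list, fixed markers, and the 5 genes most like the members in profile. Cbr2, Itga9, Nr1h3 and the Cd209 genes outside the members were named beyond these limits, after their values were seen. Promoter windows came from RefSeq tables of GRCm38.p6 and were aligned with biopython 1.88. Figures were drawn with matplotlib 3.10.9.

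In simulated data of 22961 probesets, the fit found 11 of 61 log2 changes of size 0.5, 54 of 71 of size 1 and 64 of 68 of size 2, with 6 false calls. No other probesets were changed, a far smaller share than the 20.4% of genes called in the data. Size 0.5 is also the fold threshold itself, so estimates under it could not be called. These rates therefore do not measure the power for the resident genes. Precision is limited by 3 arrays per genotype, and p-values measure the spread between pools. The filter on detection in the methods needs single-probe values and was not repeated. Alternatives were filters on low values (30th percentile or the median of all values, on at least 3 arrays), all probesets, centring on array medians or housekeeping genes, array weights, robust eBayes, limma-trend, cyclic loess, other fold thresholds, averaging the probesets of a gene, other macrophage references and leaving out each array in turn. Columns of the authors' own comparisons were not used.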

Additional observations from a re-analysis of the deposited data

How the results depend on the processing

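Under 18 alternatives the count of resident genes that fell stayed within 1.5 times of 3, and under 20 alternatives the counts above and below the general macrophage genes did so too. The count that rose was 1 at a log2 fold threshold of 1, and leaving out each array in turn gave 1 to 2, with 1 without ob/ob array 2. The sign turned for Cd163 without ob/ob array 3 (0.0083), for F13a1 centred on housekeeping genes (0.13) and without ob/ob array 3 (0.12), and for the distance of Folr2 from the general macrophage genes without ob/ob/Fsp27-/- array 2 (−0.026). Leaving out each array in turn gave −0.49 to 0.0083 for Cd163 and −0.22 to 0.12 for F13a1. These values had not passed the test, and the cause was not tested. Of the values of single genes, 171 log2 fold changes and 196 differences kept direction and side of the threshold. Timd4 and Cd209g gave no value under the filter at the median, which removed them. No paired analysis was possible because the labels number each array separately and give no number shared between the genotypes.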

Other observations

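Among all other genes, the 5 whose log2 values over the 6 arrays were most like the mean profile of the resident genes were Gfra2, a receptor subunit for neurturin (Pearson r 0.994), Hmcn2, an extracellular matrix gene (0.992), Camta2 (0.989), Crlf2, a receptor subunit for thymic stromal lymphopoietin (0.989), and Sf3a1, a splicing factor (0.988). They were picked as the highest of all genes over arrays of 2 genotypes, so the values are a description. Gfra2 had 6.52, 7.11 and 6.69 in ob/ob/Fsp27-/- and 7.11, 7.27 and 7.63 in ob/ob GWAT, and its log2 fold change of −0.57 did not pass the test (adjusted p = 0.0624, limma). Crlf2 had −0.49 (adjusted p = 0.0225), just under the fold threshold.

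Of 8 measured genes of recruited monocytes 4 fell, led by S100a4 (−2.96), Vcan (−2.07), Ccr2, the receptor that brings monocytes into tissue (−1.86), and Fn1 (−1.59). Of 7 genes of peritoneal macrophages, a separate resident population, 3 fell (Saa3 −1.31, Lrg1 −0.98 and Tgfb2 −0.53) and 0 rose, but the list median was 0.32. Their defining factor Gata6 had 0.42 (adjusted p = 0.00861, limma), under the fold threshold. At an unadjusted p under 0.05 by limma, 3 of the 7 were higher and 3 lower, so this list was split. Of 8 T and B cell genes 0 passed by limma (2 higher and 1 lower at an unadjusted p under 0.05), with 3 higher without ob/ob/Fsp27-/- array 1 and 1 lower without ob/ob array 3. Of 9 neutrophil genes 1 rose (S100a8, 0.83), and 0 without ob/ob/Fsp27-/- array 2 or 3.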
